A study of Mus musculus with 4 samples.

Results

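The CXC chemokines are small secreted proteins that steer white blood cells, and the 10 genes described here are 8 of their ligands (Cxcl1, Cxcl2, Cxcl3, Cxcl5, Cxcl9, Cxcl10, Cxcl12 and Cxcl16) and 2 of their receptors (Cxcr2 and Cxcr4). They were taken by name from 52535 mouse gene models, and 9 of the 10 had enough counts to be tested. RNA sequencing had been done on pancreatic duct preparations of C57BL/6 mice in 4 libraries. The tested genotype is Lats1fl/fl; Lats2fl/fl; Sox9-CreER (libraries KO 1 and KO 2), in which floxed alleles of the Hippo pathway kinases Lats1 and Lats2 are combined with a tamoxifen-activated Cre driven by Sox9, a gene of duct cells that is not restricted to them. It was set against wild type (WT 1 and WT 2). The labels give no age, sex, tamoxifen schedule or time after induction, and do not say whether the wild-type mice carried the Cre or received the drug. Whether the libraries of a group are separate animals is not stated, and the p-values then reflect only the variation among these 4 libraries, which may be technical.

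As background, CXC ligands fall into functional groups. Cxcl1, Cxcl2, Cxcl3 and Cxcl5 attract neutrophils through Cxcr2 and are switched on by NF-kappa B downstream of interleukin 1 and tumour necrosis factor. Cxcl9 and Cxcl10 are induced by interferon and call T and NK cells that carry Cxcr3. Cxcl12 is made steadily by stromal and endothelial cells and holds Cxcr4-bearing cells in place, while Cxcl16 is a membrane-bound ligand and scavenger receptor that can be shed to attract cells bearing Cxcr6.

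Library totals were 5082636 and 5925601 counts in KO 1 and KO 2, and 3566387 and 4735183 counts in WT 1 and WT 2. Levels below are CPM, counts scaled to a common library size after a correction for composition (TMM), and 3 counts in a library correspond to 0.483 to 0.820 CPM. The targeted genes were not lower in the libraries labelled KO. Lats1 stood at 69.6 and 78.7 CPM in the KO-labelled libraries, against 50.5 and 65.3 CPM in WT (adjusted p = 0.171). Lats2 stood at 162 and 121 CPM in the KO-labelled libraries, against 114 and 102 CPM in WT (adjusted p = 0.127). These counts cover whole gene models, so they do not show whether the floxed exons were lost, and the genotype is given as labelled throughout. Duct markers were present in every library, with a summed level of 15200 and 15300 CPM over 12 genes in the KO-labelled libraries, against 2110 and 2600 CPM in WT. Acinar markers made up 0.0156% and 0.382% of counts in the KO-labelled libraries, against 5.17% and 8.52% in WT, and albumin had 16 and 7 counts in KO 1 and KO 2, against 21060 and 619 counts in WT 1 and WT 2.

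Of the 10 genes, 3 rose in the KO-labelled libraries (Cxcl2, Cxcl3 and Cxcl16), 3 fell (Cxcl9, Cxcl12 and Cxcr4), 3 did not pass the test (Cxcl1, Cxcl5 and Cxcl10) and Cxcr2 had too few counts to be tested. A gene passed at an adjusted p below 0.05 in edgeR's quasi-likelihood test, fitted across 13990 genes. So many genes passed in this comparison, 42.2% of all tested and 22.0% upward and 20.2% downward, that 3 in each direction among 9 is close to the general share. The median log2 fold change of the 9 tested genes was -0.34, against -0.01 over all tested genes. Genes of one role did not all have the same call, as the plot of levels by library shows: the neutrophil-attracting ligands held rises and genes that did not pass, and the homeostatic and scavenging genes held a rise and falls. In a bulk preparation, fewer cells of a type and less RNA per cell cannot be told apart, and this holds for every difference below.

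**Figure D1:**
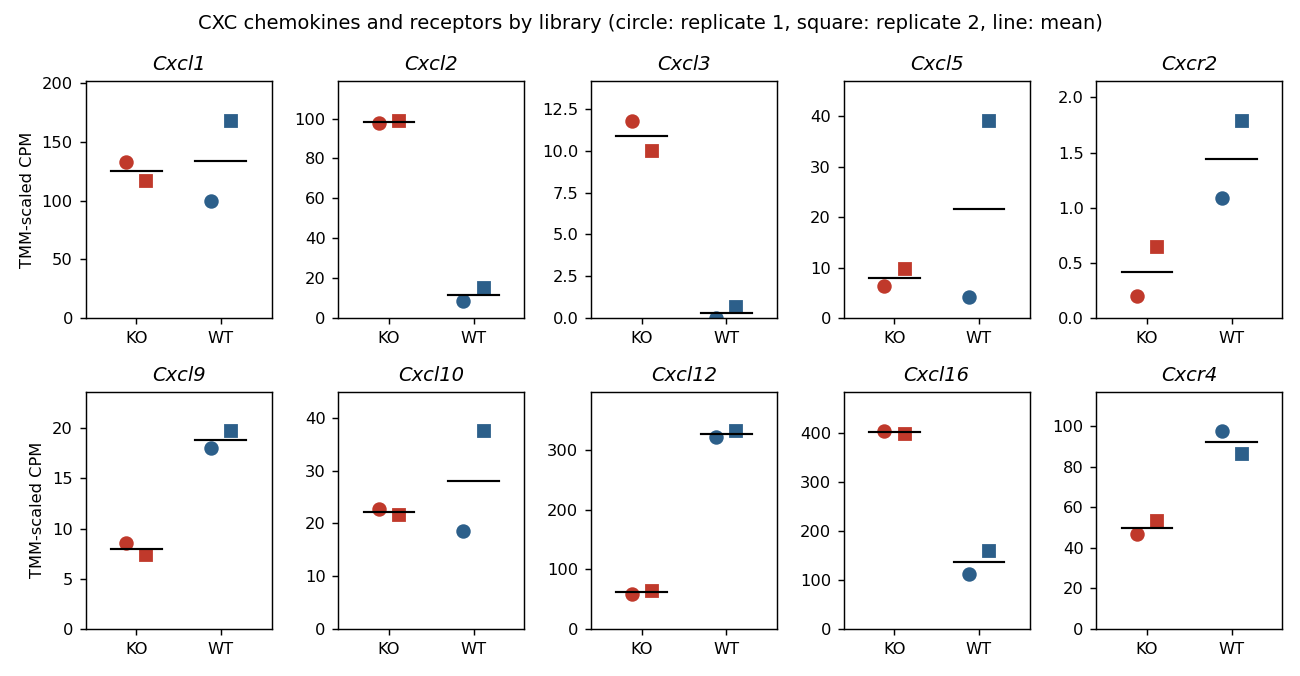
TMM-scaled CPM of the 10 CXC genes in each library, KO left of WT, each panel with its own linear axis from 0. Points are libraries and bars are group means, with n = 2 each. Cxcl2, Cxcl3 and Cxcl16 lie higher in both KO libraries than in both WT libraries. Cxcl9, Cxcl12 and Cxcr4 lie lower in both, as does Cxcr2, which had too few counts to be tested.

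Per kilobase of exon, the order of the genes also differed between groups. In the KO-labelled libraries Cxcl16 led at 134 and 132 CPM per kilobase, followed by Cxcl1 at 71.0 and 62.4 and Cxcl2 at 47.2 and 47.9. In WT the upper levels were Cxcl1 at 53.2 and 89.7 CPM per kilobase, Cxcr4 at 53.9 and 47.8, Cxcl16 at 37.5 and 52.7 and Cxcl12 at 39.3 and 40.6. The WT ranges of Cxcl1 and Cxcr4 overlapped, as did those of Cxcr4 and Cxcl16 and those of Cxcl16 and Cxcl12, whereas Cxcl1 lay above Cxcl16 and Cxcl12, and Cxcr4 above Cxcl12, in both libraries. Cxcl12 stood at 7.24 and 7.81 CPM per kilobase in the KO-labelled libraries, below Cxcl10 at 10.1 and 9.65. Cxcl2 was at 4.23 and 7.24 CPM per kilobase in WT, near Cxcl9 at 5.98 and 6.52. Cxcr2 and Cxcl3 were the lowest in WT, at 0.359 and 0.587 and at 0 and 0.192 CPM per kilobase.

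The 4 neutrophil-attracting ligands lie together on chromosome 5, and the promoters of Cxcl1, Cxcl2 and Cxcl3 carry a shared motif. The promoter of Cxcl5 was not searched. A kappa B motif, GGANNTTCC on either strand, the sequence type bound by NF-kappa B, was searched from 250 bases before to 50 bases after each RefSeq gene start (GRCm38.p6). It occurred in 4.26% of 32851 promoters, and in 4 of the 8 promoters of the 10 genes that were in the table. The same 9 bases, in capitals, stood at bases -70 to -62 of Cxcl1, -96 to -88 of Cxcl2 and -72 to -64 of Cxcl3, counted from the gene start. The 3 promoters are shown because they hold the same 9 bases while their genes did not move alike (plus strand, chr5:90891115-90891214, chr5:90903769-90903868 and chr5:90785971-90786070).
Cxcl1: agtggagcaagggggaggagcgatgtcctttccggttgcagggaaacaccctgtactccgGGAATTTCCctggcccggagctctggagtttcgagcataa
Cxcl2: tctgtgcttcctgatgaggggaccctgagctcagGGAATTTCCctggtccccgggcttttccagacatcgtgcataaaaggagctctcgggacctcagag
Cxcl3: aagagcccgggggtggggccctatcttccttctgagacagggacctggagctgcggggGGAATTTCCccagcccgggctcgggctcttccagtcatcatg
A match of letters is a description and not evidence of binding.

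Cxcl2, a strong neutrophil attractant made by macrophages and epithelium (mm10, chromosome 5, 90903871 to 90905938), stood at 97.6 and 99.0 CPM in KO 1 and KO 2, against 8.74 and 15.0 CPM in WT 1 and WT 2. The groups did not overlap, and the means were 98.3 ± 0.945 CPM in KO and 11.9 ± 4.40 CPM in WT (SD, n = 2 each, as throughout). Cxcl2 thus rose 8.20-fold, a log2 fold change of 3.04 ± 0.26 (SE) with an adjusted p of 6.67e-05. Cxcl3, its close relative (chromosome 5, 90786103 to 90789600), was at 11.8 and 9.98 CPM in the KO-labelled libraries, against 0 and 0.67 CPM in WT. It was nearly absent from WT, with 59 and 62 counts in KO 1 and KO 2 and 0 and 3 counts in WT 1 and WT 2. The ratio of pooled counts scaled to library size was 29.3, with a 95% exact interval of 9.78 to 144 that covers counting error only, and Cxcl3 rose in the test (log2 fold change 4.80 ± 0.71, adjusted p = 0.00096). That fitted size turns on the few WT counts, since it was 3.99 without WT 1 and 8.76 without WT 2. Cxcl2 and Cxcl3 share 146 stretches of 36 bases, 6.85% of those in Cxcl2, and reads from these could have been assigned to either gene. Cxcl2 had 488 and 615 counts in KO 1 and KO 2, so such reads could weigh more in Cxcl3 than in Cxcl2. Their part in the Cxcl3 counts was not tested.

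Cxcl1, which lies 12.6 kb from Cxcl2 (chromosome 5, 90891241 to 90893115) and acts on the same receptor, did not follow it. It was at 133 and 117 CPM in the KO-labelled libraries, against 99.7 and 168 CPM in WT, so the WT libraries lay on both sides of KO. The log2 fold change was -0.10 ± 0.25 (adjusted p = 0.77). Cxcl5, the remaining neutrophil attractant (chromosome 5, 90759360 to 90761624), was at 6.40 and 9.66 CPM in the KO-labelled libraries, against 4.10 and 39.1 CPM in WT. Its groups overlapped and WT 2 stood apart from the other 3 libraries, so the fit gave -1.44 ± 1.24 with an adjusted p of 0.438. That value depended on which WT library was kept: it was -2.26 without WT 1 (adjusted p = 0.000644) and 0.98 without WT 2 (adjusted p = 0.207).

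The mix of the 4 ligands therefore differed between the groups, as the stacked shares show. Of their summed counts, Cxcl2 made up 39.2% (95% exact binomial interval 36.5 to 42.0) in KO 1 and 42.0% (39.5 to 44.6) in KO 2, against 7.77% (5.37 to 10.8) in WT 1 and 6.71% (5.24 to 8.45) in WT 2. Cxcl1 made up 53.5% and 49.7% in the KO-labelled libraries, against 88.6% and 75.5% in WT. There were 1.36 and 1.18 Cxcl1 counts per Cxcl2 count in the KO-labelled libraries, against 11.4 and 11.2 in WT. The WT libraries were close in that ratio although their Cxcl1 levels were not. The sum of the 4 ligands was 249 and 236 CPM in the KO-labelled libraries, against 113 and 223 CPM in WT, and so came close to WT 2. These intervals cover counting error only.

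**Figure D2:**
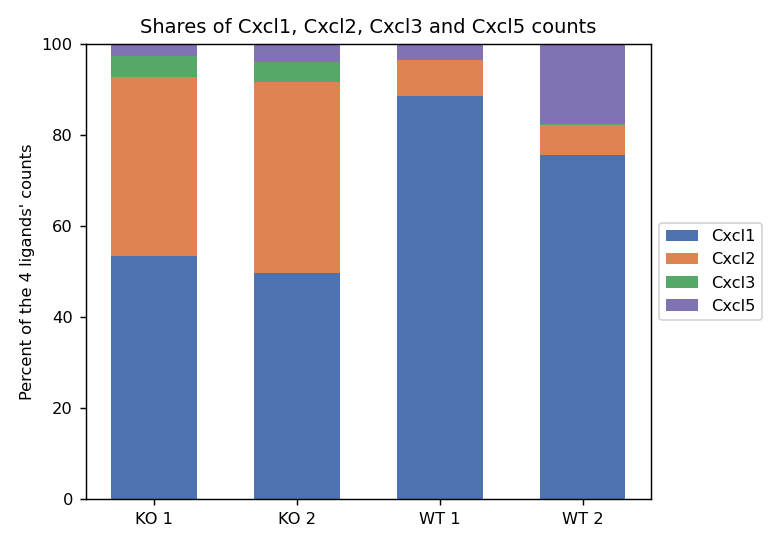
Share of the summed counts of Cxcl1, Cxcl2, Cxcl3 and Cxcl5 taken by each gene, in percent, as a stacked bar per library with KO left of WT. Cxcl2 takes 39.2% and 42.0% in the KO libraries and 7.77% and 6.71% in the WT libraries.

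Cxcr2, the receptor of these ligands and a gene of mature neutrophils (chromosome 1, 74153989 to 74161246), was close to the limit of detection. It had 1 and 4 counts in KO 1 and KO 2, against 4 and 8 counts in WT 1 and WT 2. It did not pass the filter on low counts, and the ratio of pooled counts scaled to library size was 0.302, with a 95% exact interval of 0.0834 to 0.922 for counting error only. Fitted without a filter, its log2 fold change was -1.60 with an adjusted p of 0.369. Cxcr2 shares 313 stretches of 36 bases with other genes, 10.3% of its own. The part of such reads in its few counts was not tested. Neutrophil markers were also few: 4 of 11 were tested, of which Csf3r rose and S100a9 and Ltf fell. Leaving out WT 1 or KO 1 lowered the count of markers that fell to 1, and leaving out KO 2 lowered it to 0. Their summed level was 34.4 and 25.3 CPM in the KO-labelled libraries, against 235 and 120 CPM in WT. Most of the WT sum was Ltf, at 6.20 and 12.6 CPM in the KO-labelled libraries, against 198 and 100 CPM in WT, and Ltf (lactoferrin) is made by secretory epithelium as well as by neutrophils. Ly6g, the defining mouse neutrophil marker, had 0 and 0 counts in the KO-labelled libraries, against 2 and 0 counts in WT, too few to show a difference. Macrophage markers moved the same way as Cxcl2 and Cxcl3: 11 of 11 rose, with a summed level of 6240 and 4420 CPM in the KO-labelled libraries, against 637 and 605 CPM in WT, and none was at 0 in any library. Duct markers did too, with 9 of 12 rising. The part of either in the ligand values was not tested.

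Cxcl9 and Cxcl10, the interferon-induced ligands, lie side by side in another stretch of chromosome 5. Their promoters were searched for an interferon-stimulated response element core, TTCNNTTTC on either strand, which 8.56% of promoters held, and among the 8 promoters it was found in these 2 genes. The stretches below show it in capitals at -175 to -167 of Cxcl9 and at -213 to -205 of Cxcl10. In Cxcl10 the capitals further mark a kappa B motif at -158 to -150 and an AP-1 motif, TGANTCA, at -74 to -68, and none of these matches overlapped another. Both are printed in the direction of the gene (minus strand, chr5:92328200-92328299 and chr5:92348950-92349109).
Cxcl9: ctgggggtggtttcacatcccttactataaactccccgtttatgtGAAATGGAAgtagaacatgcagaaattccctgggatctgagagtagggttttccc
Cxcl10: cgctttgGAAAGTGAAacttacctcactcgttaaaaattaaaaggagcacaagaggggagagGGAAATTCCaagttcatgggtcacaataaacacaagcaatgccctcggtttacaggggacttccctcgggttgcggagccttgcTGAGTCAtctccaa
The AP-1 motif stood in 7.81% of all promoters and in 2 of the 8, here and at 32 to 38 after the start of Cxcl9. A TEAD motif, GGAATG, the type bound by the partners of YAP, stood in 14.7% of all promoters and in those of Cxcr2 and Cxcl3. The gamma-activated site TTCNNNGAA, found in 8.3% of promoters, was in none of the 8 windows.

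Cxcl9, which interferon gamma induces in macrophages and other cells (chromosome 5, 92321347 to 92328079), fell to 8.60 and 7.40 CPM in KO 1 and KO 2, against 18.0 and 19.7 CPM in WT 1 and WT 2. It was 2.36-fold lower, with no overlap between groups, a log2 fold change of -1.24 ± 0.29 and an adjusted p of 0.00895. Without KO 2 the change was -1.10 and no longer passed (adjusted p = 0.064). Cxcl10, which answers to both types of interferon (chromosome 5, 92346638 to 92348889), was at 22.8 and 21.7 CPM in the KO-labelled libraries, against 18.6 and 37.5 CPM in WT. It did not pass (log2 fold change -0.34 ± 0.32, adjusted p = 0.428), and its sign turned on WT 2, without which it was 0.26. Art3 overlaps it on the opposite strand and shares 98 stretches of 36 bases, 4.23% of those in Cxcl10. There were 2.65 and 2.93 Cxcl10 counts per Cxcl9 count in the KO-labelled libraries, against 1.03 and 1.91 in WT, and these ranges did not overlap. Cxcl11, the third ligand of the group, had 1 and 3 counts in the KO-labelled libraries, against 1 and 2 counts in WT.

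Cxcr3, the receptor of the interferon-induced ligands on activated T and NK cells, fell to 0.600 and 0.483 CPM in the KO-labelled libraries, against 8.20 and 14.1 CPM in WT. It was 20.0-fold lower (log2 fold change -4.32 ± 0.56, adjusted p = 0.000501). T and NK cell markers moved with it: 9 of 9 tested fell, and the sum over 10 genes was 73.6 and 46.8 CPM in the KO-labelled libraries, against 1080 and 1150 CPM in WT, with Ncr1 at 0 and 0 counts in the KO-labelled libraries, against 14 and 7 counts in WT. Of 7 dendritic cell markers 6 fell, with sums of 34.6 and 35.6 CPM in the KO-labelled libraries, against 199 and 232 CPM in WT, as the plot of marker sums shows. Macrophage markers went the other way from Cxcl9: 11 of 11 rose, with sums of 6240 and 4420 CPM in the KO-labelled libraries, against 637 and 605 CPM in WT. The part of these cell types in the Cxcl9 and Cxcr3 values was not tested.

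**Figure D3:**
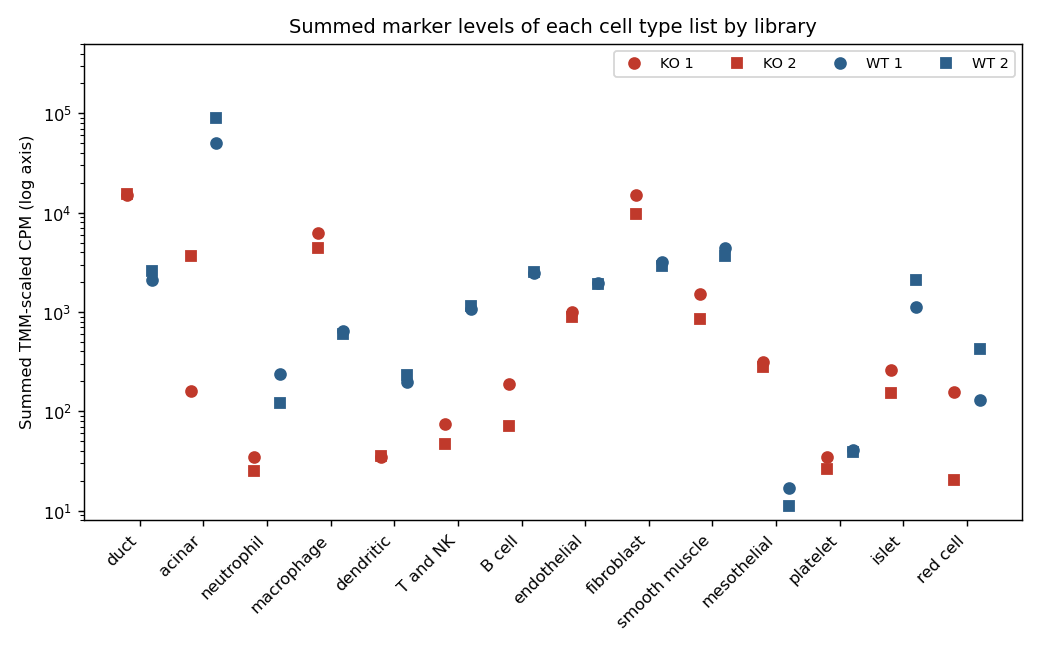
Summed TMM-scaled CPM of the marker genes of each cell type in each library, on a log axis, with KO listed ahead of WT. Macrophage, duct, fibroblast and mesothelial sums lie higher in both KO libraries. Acinar, islet, T and NK, B, dendritic, endothelial, smooth muscle, neutrophil and platelet sums lie lower in both, and red cell sums overlap between groups.

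Genes that carry the interferon signal moved in both directions. Of 15 tested genes of interferon signalling 5 rose and 6 fell, with a median log2 fold change of -0.09. Over all tested genes 22.0% rose and 20.2% fell, so movement in both directions was general. Irf1, a transcription factor induced by interferon gamma, fell to 41.8 and 34.1 CPM in the KO-labelled libraries, against 81.7 and 128 CPM in WT (2.77-fold lower, adjusted p = 0.00187). Socs3, a feedback inhibitor of cytokine receptors, rose to 541 and 494 CPM in the KO-labelled libraries, against 184 and 263 CPM in WT (2.31-fold, adjusted p = 0.00179). Ifngr2, a chain of the interferon gamma receptor, rose to 83.2 and 105 CPM in the KO-labelled libraries, against 37.2 and 56.1 CPM in WT (2.01-fold, adjusted p = 0.0089), but its adjusted p was 0.0558 without KO 2. The count of 5 that rose was 2 without WT 1 and 3 without KO 1. Ifng itself had 1 and 0 counts in the KO-labelled libraries, against 2 and 3 counts in WT.

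Cxcl12, the homeostatic ligand of stromal and endothelial cells (chromosome 6, 117168535 to 117181367), fell in every pairing of libraries. It was at 59.2 and 63.9 CPM in KO 1 and KO 2, against 322 and 332 CPM in WT 1 and WT 2. The means were 61.6 ± 3.30 CPM in KO and 327 ± 7.25 CPM in WT, a 5.30-fold lower level (log2 fold change -2.41 ± 0.16, adjusted p = 2.36e-05). Cxcr4, its signalling receptor, found on lymphocytes and many other cells (chromosome 1, 128588199 to 128592293), fell less, to 47.0 and 53.0 CPM in the KO-labelled libraries, against 97.5 and 86.5 CPM in WT. It was 1.84-fold lower (log2 fold change -0.88 ± 0.18, adjusted p = 0.00454). Ackr3, an atypical receptor that removes Cxcl12 from the surroundings, rose to 38.6 and 33.6 CPM in the KO-labelled libraries, against 11.2 and 19.2 CPM in WT. Its 2.35-fold change (log2 fold change 1.24 ± 0.28, adjusted p = 0.00875) did not pass without KO 1 (1.14, adjusted p = 0.0565). There were 1.26 and 1.21 Cxcl12 counts per Cxcr4 count in the KO-labelled libraries, against 3.30 and 3.84 in WT.

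Several cell types known to express Cxcl12 or Cxcr4 also differed between the groups. Endothelial markers fell in 8 of 9 cases, and in fewer with any 1 library left out. Their sums were 988 and 886 CPM in the KO-labelled libraries, against 1980 and 1900 CPM in WT. Fibroblast markers went the other way from Cxcl12: 7 of 9 rose and 1 fell (0 fell without WT 2 or without KO 2), with sums of 15200 and 9740 CPM in the KO-labelled libraries, against 3200 and 2880 CPM in WT. Smooth muscle markers fell in 6 of 6 cases, and likewise in fewer with any 1 library left out. Their sums were 1510 and 854 CPM in the KO-labelled libraries, against 4410 and 3670 CPM in WT. B cell markers fell in 8 of 8 cases, but in fewer in some of the fits with 1 library left out. Their sums were 188 and 71.3 CPM in the KO-labelled libraries, against 2460 and 2530 CPM in WT. None of these lists was at 0 as a whole, and their part in the Cxcl12 and Cxcr4 values was not tested.

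Cxcl16, the membrane-bound ligand made by macrophages and epithelium (chromosome 11, 70453983 to 70459984), was the most abundant of the 10 genes per kilobase in the KO-labelled libraries. It rose to 404 and 399 CPM in KO 1 and KO 2, against 113 and 159 CPM in WT 1 and WT 2. The means of 402 ± 3.34 CPM in KO and 136 ± 32.3 CPM in WT gave a 2.95-fold rise (log2 fold change 1.56 ± 0.19, adjusted p = 0.000422). Zmynd15 overlaps it on the opposite strand and shares 517 stretches of 36 bases, 18.1% of those in Cxcl16. Zmynd15 was at 13.0 and 10.6 CPM in the KO-labelled libraries, against 15.0 and 18.5 CPM in WT, far below Cxcl16 on the same scale. The balance of both broadly expressed ligands shifted: there were 6.82 and 6.25 Cxcl16 counts per Cxcl12 count in the KO-labelled libraries, against 0.353 and 0.479 in WT. Corrected for exon length, this ratio was 18.5 and 16.9 in the KO-labelled libraries, against 0.954 and 1.3 in WT. Both ligands were thus near parity in WT by that measure. Cxcr6, the receptor of Cxcl16 on T and NK cells, fell to 1.40 and 1.45 CPM in the KO-labelled libraries, against 7.65 and 10.3 CPM in WT (6.21-fold lower, log2 fold change -2.64 ± 0.46, adjusted p = 0.00232).

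The sum of all 8 ligands was 744 and 728 CPM in the KO-labelled libraries, against 584 and 771 CPM in WT, so the groups overlapped in the total and differed in its make-up.

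Of the 13 other CXC ligands and receptors in the files 9 were tested, 3 rose and 3 fell, with a median log2 fold change of -0.25. The shares over all tested genes were 22.0% rising and 20.2% falling. The plot of family fold changes sets them beside the 10 genes. Cxcl14, a ligand of epithelium and stroma with a disputed receptor, had the largest rise of these 9, to 146 and 138 CPM in the KO-labelled libraries, against 2.73 and 9.39 CPM in WT. Its rise was 22.7-fold (log2 fold change 4.50 ± 0.48, adjusted p = 0.00148). With 1 KO-labelled library left out it kept that size but did not pass, at 4.48 without KO 1 and 4.58 without KO 2. The size was 3.93 without WT 1 and 5.69 without WT 2. Cxcl17, a ligand of mucosal epithelium, rose to 3.40 and 8.37 CPM in the KO-labelled libraries, against 0.546 and 0.447 CPM in WT (11.5-fold, log2 fold change 3.53 ± 0.74, adjusted p = 0.00564), but not without KO 2 (2.75, adjusted p = 0.109). The count of 3 that rose was therefore 1 without KO 1 and 1 without KO 2.

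Cxcr5, the B cell receptor for Cxcl13, fell to 13.4 and 4.35 CPM in the KO-labelled libraries, against 50.8 and 51.6 CPM in WT (5.86-fold lower, log2 fold change -2.55 ± 0.49, adjusted p = 0.00949). Its size was -3.55 without KO 1 and -1.90 without KO 2, and its model overlaps Bcl9l, so its counts are uncertain. Cxcl13, a ligand of lymphoid follicles, was at 21.6 and 5.63 CPM in the KO-labelled libraries, against 32.2 and 28.8 CPM in WT. It did not pass (log2 fold change -1.18 ± 0.64, adjusted p = 0.21), but did so with no filter on low counts (-1.11, adjusted p = 0.00233). Its size depended on the KO-labelled library kept, at -2.43 without KO 1 and -0.46 without KO 2. Pf4, a platelet and macrophage gene, was at 9.60 and 4.99 CPM in the KO-labelled libraries, against 3.28 and 4.25 CPM in WT (adjusted p = 0.146). Ackr1, an endothelial and red cell receptor that binds chemokines without signalling, was at 4.40 and 3.22 CPM in the KO-labelled libraries, against 3.83 and 5.14 CPM in WT (adjusted p = 0.694), and it overlaps Cadm3 on the same strand. Ppbp, another platelet ligand, had 5 and 0 counts in the KO-labelled libraries, against 0 and 0 counts in WT. Cxcl15 and Cxcr1 had 0 counts in all 4 libraries.

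**Figure D4:**
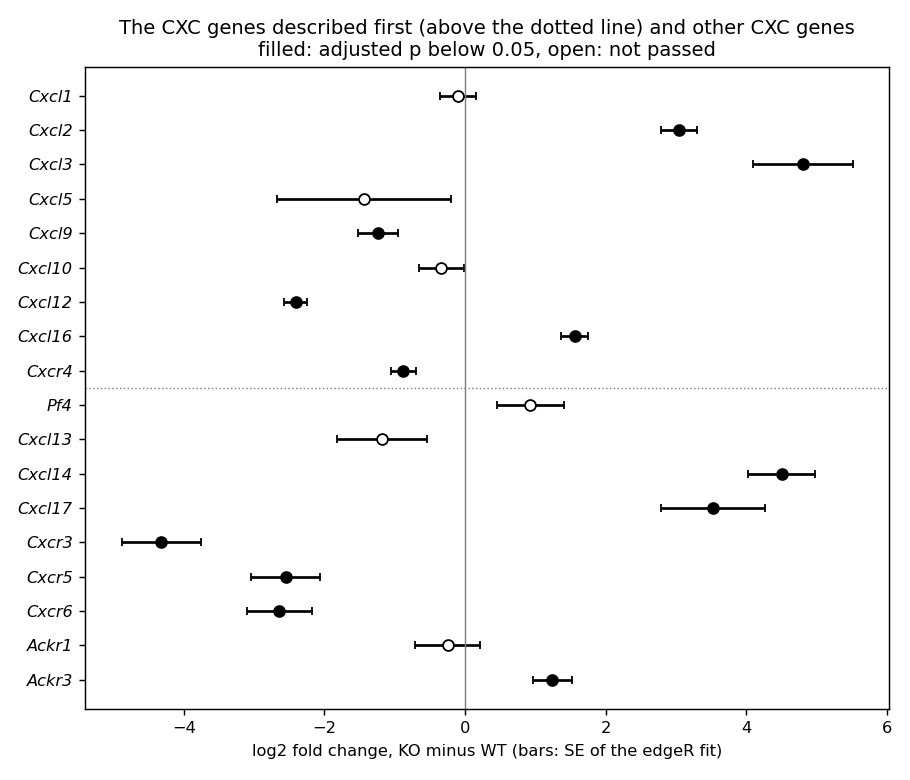
Log2 fold change (KO minus WT) of each tested CXC ligand and receptor, with its standard error as a bar; filled points passed at an adjusted p below 0.05. The 9 tested genes of the 10 stand above the dotted line, where Cxcl2, Cxcl3 and Cxcl16 lie to the right of 0 and Cxcl9, Cxcl12 and Cxcr4 to the left, and the other family genes run from Cxcl14 at 4.50 to Cxcr3 at -4.32.

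Of 10 tested genes in a list of inducing cytokines and their receptors 6 rose and none fell, with a median log2 fold change of 1.54, against 22.0% rising and a median of -0.01 over all tested genes. The 6 were the cytokines Il1a, Il1b and Tnf, the receptors Tnfrsf1a and Tnfrsf1b, and Il1rn, which blocks the interleukin 1 receptor. Il6 did not pass (adjusted p = 0.0513) and Il17a was not tested; the genes of this list beyond Il1a and Il1b were named after their values were seen. Il1a rose to 83.0 and 52.0 CPM in the KO-labelled libraries, against 1.91 and 2.01 CPM in WT (33.9-fold, adjusted p = 2.71e-05). Il1b, the secreted interleukin 1 of myeloid cells, rose to 501 and 318 CPM in the KO-labelled libraries, against 27.3 and 43.8 CPM in WT (11.5-fold, adjusted p = 0.000316). The NF-kappa B factors and their feedback genes, by contrast, stood at a median of -0.02, with 2 of 17 rising and 2 falling. Tnfaip2, a gene induced by tumour necrosis factor, rose to 159 and 111 CPM in the KO-labelled libraries, against 35.2 and 54.1 CPM in WT (3.02-fold, adjusted p = 0.00227). Rela, the main activating NF-kappa B subunit, was at 179 and 182 CPM in the KO-labelled libraries, against 117 and 142 CPM in WT, and its 1.39-fold rise (adjusted p = 0.0459) did not pass with any 1 library left out. Ikbkb, a kinase that activates NF-kappa B, fell to 82.4 and 83.7 CPM in the KO-labelled libraries, against 133 and 138 CPM in WT (1.63-fold lower, adjusted p = 0.00707). Birc3, an NF-kappa B target that acts in tumour necrosis factor signalling, fell to 123 and 121 CPM in the KO-labelled libraries, against 183 and 215 CPM in WT (1.63-fold lower, adjusted p = 0.00868), and did not pass without WT 2 (adjusted p = 0.0743).

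Proteases that act on CXC ligands were tested in 7 cases, of which 3 rose and 1 fell, against 22.0% and 20.2% over all tested genes. Mmp2, which cleaves and inactivates Cxcl12, rose to 909 and 969 CPM in the KO-labelled libraries, against 108 and 80.4 CPM in WT (9.98-fold, adjusted p = 1.73e-05). Mmp8, the neutrophil collagenase, rose to 9.60 and 4.99 CPM in the KO-labelled libraries, against 0.820 and 0.894 CPM in WT (8.21-fold, adjusted p = 0.00441), but not without KO 1 (adjusted p = 0.0688). Adam10, the sheddase of Cxcl16, named here after its values were seen, rose to 183 and 254 CPM in the KO-labelled libraries, against 106 and 102 CPM in WT (2.10-fold, adjusted p = 0.00273). Dpp4, a peptidase that clips Cxcl9, Cxcl10 and Cxcl12, fell to 20.6 and 20.4 CPM in the KO-labelled libraries, against 65.0 and 67.7 CPM in WT (3.23-fold lower, adjusted p = 0.000266).

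Of 18 genes of receptor signalling 5 rose and 8 fell, with a median of -0.26, against 22.0% rising and 20.2% falling over all tested genes. Plcb2, a phospholipase of blood cells, fell to 12.2 and 8.21 CPM in the KO-labelled libraries, against 52.5 and 70.4 CPM in WT (6.05-fold lower, adjusted p = 0.000182). Rac2, the blood cell Rac, fell to 81.0 and 38.8 CPM in the KO-labelled libraries, against 263 and 266 CPM in WT (4.43-fold lower, adjusted p = 0.00532). With 1 library left out its log2 fold change ranged from -2.76 (without KO 1) to -1.67. Hif1a, the hypoxia factor known to induce Cxcr4, rose to 398 and 403 CPM in the KO-labelled libraries, against 157 and 144 CPM in WT (2.66-fold, adjusted p = 0.00022). Plcb3, the broadly expressed phospholipase, rose to 77.0 and 84.8 CPM in the KO-labelled libraries, against 51.1 and 42.5 CPM in WT (1.73-fold, adjusted p = 0.00908), but not without WT 2 (adjusted p = 0.0638). Leaving out either WT library lowered the count of 5 that rose to 2, and leaving out KO 2 lowered it to 3.

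The surroundings of both chromosome 5 clusters did not move as blocks, as the plot of neighbours shows. For the counts that follow, 22.0% of all tested genes rose and 20.2% fell. Within 300 kb of the Cxcl1 cluster 6 other genes were tested, of which 3 rose and 1 fell. Ereg and Areg, ligands of the EGF receptor that lie 183 and 248 kb from the Cxcl1 start, rose with log2 fold changes of 6.10 (adjusted p = 1.51e-05) and 2.85 (adjusted p = 0.000112). Mthfd2l, a mitochondrial folate enzyme between Cxcl2 and Ereg, rose by 1.43 (adjusted p = 0.0179), but the call was lost when WT 2 (adjusted p = 0.0992), KO 1 (0.0652) or KO 2 (0.116) was left out. Rassf6, on the far side of Cxcl5, fell by 1.89 (adjusted p = 0.00635), and did not pass without KO 1 (adjusted p = 0.0523). Cxcl1 lies between Cxcl3 and Cxcl2, both of which rose. Within 300 kb of Cxcl9 and Cxcl10 10 other gene models were tested, of which Scarb2 (log2 fold change 1.41, adjusted p = 0.000267) and Stbd1 (1.32, adjusted p = 0.00271) rose. Art3, which overlaps Cxcl10, fell by 1.31 (adjusted p = 0.0153), a call lost when WT 1, KO 1 or KO 2 was left out.

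**Figure D5:**
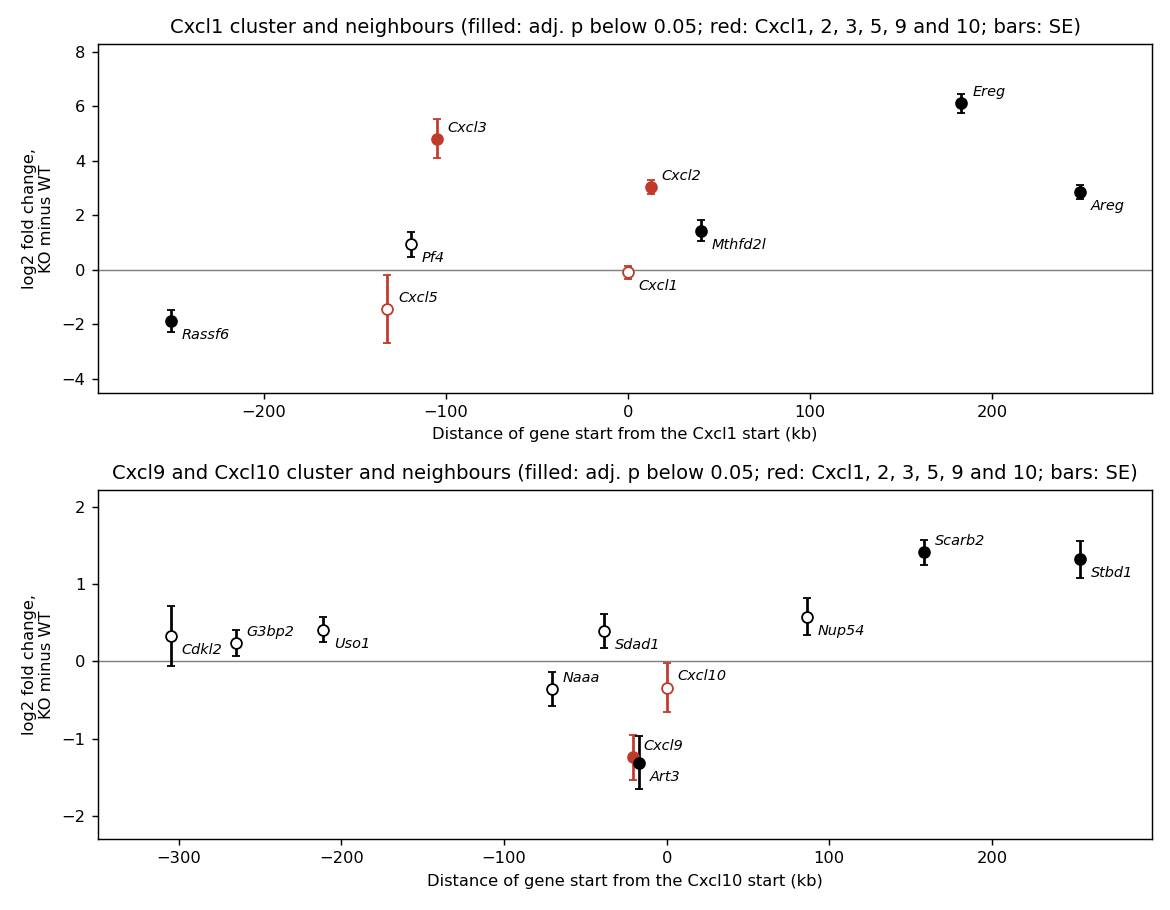
Log2 fold change (KO minus WT) of the named tested genes around the Cxcl1 cluster (top) and around Cxcl9 and Cxcl10 (bottom), against the distance of each gene start from that of Cxcl1 or Cxcl10 in kilobases. Bars are standard errors, filled points passed at an adjusted p below 0.05 and red marks CXC genes of the 10; Cxcl1 lies at -0.10 between Cxcl3 at 4.80 and Cxcl2 at 3.04. Albumin, whose counts came mostly from WT 1, is not drawn.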

How the data were processed

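The authors deposited raw counts per gene model, 1 file per library. Per the submitters' processing notes, reads were processed with TopHat and edgeR on mm10. Neither the counting program nor its use of strand is known here, so overlapping genes on opposite strands may share counts. Per the labels' protocols, total RNA was made into stranded SMARTer libraries.

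From these counts, genes with low values were removed with filterByExpr and 13990 remained. The quasi-likelihood test of edgeR 4.0.16 (robust glmQLFit, glmQLFTest, TMM factors, R 4.3.3) was run on the 4 libraries with genotype as the single term and 2 residual degrees of freedom. P-values were adjusted by the Benjamini-Hochberg method over the tested genes, with a threshold of 0.05. Each SE was derived as the absolute log2 fold change over the square root of that test's F statistic. It is therefore approximate, above all at low counts. Exon lengths and shared 36-base stretches came from GENCODE M21, promoters from RefSeq (GRCm38.p6). The procedure was tested on simulated counts in which only a small set of genes differed, far fewer than passed here. That run cannot show how the scaling or the error rate behave when so many genes differ. Counts of KO 1 and KO 2 differed by more than sampling noise (chi-square per degree of freedom 19.98), as did those of WT 1 and WT 2 (20.06).

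The 10 genes and the lists were chosen with earlier results of these data known. Named were the 10 genes, the rest of the family, the 2 largest called rises and falls of each pathway list, neighbours within 300 kb and markers a result turned on. A gene that this rule takes is not reported here.

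Alternatives were RLE, upper quartile or no composition scaling, no filter, DESeq2 1.42.0, a replicate block and each library left out.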

Additional observations from a re-analysis of the deposited data

How the results depend on the processing

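Cxcl2, Cxcl3 and Cxcl16 rose, and Cxcl12 and Cxcr4 fell, under every alternative run. The number of the 10 genes that rose was 3 throughout, and the number that fell was 3 except for 4 without WT replicate 1 (Cxcl5 added) and 2 without KO replicate 2 (Cxcl9 lost). With 1 library left out, the log2 fold change ranged from -0.41 to 0.33 for Cxcl1, -2.26 to 0.98 for Cxcl5, -1.34 to -1.10 for Cxcl9, -0.74 to 0.26 for Cxcl10, -0.47 to 0.00 for Ackr1 and -0.05 to 0.83 for Cdkl2, a neighbour of Cxcl9 that did not pass. A library left alone in its group is assumed there to vary like the others. Over all genes 5910 changed, against 5011 with DESeq2 and 4206 to 4608 with 1 library left out. The count that fell was 1867 without KO replicate 2, against 2832. Upper quartile scaling moved the median of all genes to -0.20 and the split to 2339 that rose and 3594 that fell, against 3078 and 2832, and with it the NF-kappa B list had 4 falls and the interferon list 2 rises. The replicate numbers are not stated to pair libraries, and the deviations of same-numbered libraries correlated at 0.024 over genes. With a replicate block 6656 genes changed, the 10 genes kept 3 rises and 3 falls, and Cxcl13 passed at -1.39 (adjusted p = 0.00833). Cxcr2, Cxcl11 and Ppbp are limited by depth.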
